A study of Mus musculus with 4 samples.

Results

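The regions described here are stretches of accessible chromatin that were called in fibro/adipogenic progenitors (FAPs) of old, saline-injected mdx mice (old control) and in none of the other 3 libraries of the study. Touching or overlapping regions of the 4 library lists were merged, and the autosomal merged regions that held old control regions alone were kept. The rule left 32787 regions. They made up 35.0% (34.7 to 35.4%) of the 93558 autosomal merged regions with an old control region and 20.0% of all 163967 autosomal merged regions. The values in brackets are 95% exact (Clopper-Pearson) binomial intervals. They take regions as independent and account for counting error alone.

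The study made 1 library for each of 4 groups, namely control and TSA at a young and at an old age, all from FAPs of the hind limb muscles of C57BL/6 mdx mice. For 15 days, mice were injected intraperitoneally once a day with trichostatin A (TSA) at 0.5 mg per kg or with saline, which was given to the controls. The ages are given only as young and old, all groups carry the mdx mutation, and no healthy mice were compared. FAPs were sorted as Sca-1+ cells that lacked α7 integrin, CD31, CD45 and Ter119. With 1 library per group the spread between animals is unknown, and no test was made. The lists hold positions alone, so no marker of the sorted cells could be read from them.

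FAPs reside in the space between the fibres of skeletal muscle. They support regeneration of the fibres and are also a source of fibroblasts and fat cells in diseased muscle. Mice of the mdx strain make no functional dystrophin and serve as a model of Duchenne muscular dystrophy, in which muscle is gradually replaced by scar and fat. TSA inhibits histone deacetylases, enzymes whose loss of activity leaves histones more acetylated and chromatin, in general, easier to reach. In NA-seq a restriction enzyme is let into intact nuclei and cuts where DNA is accessible, so that a cut marks open chromatin that also holds the enzyme's site.

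Presence and absence of calls chose these regions, so their number is a description and supports nothing further. A region missing from another list was not called there, which is not the same as closed. The old control list was also the longest, with 95128 autosomal regions, against 85889 in old TSA, 79375 in young TSA and 42904 in young control. Regions found in a single library numbered 23577 in old TSA, 18280 in young TSA and 10977 in young control. As shares of the merged regions with a region of that library, these were 28.0%, 23.5% and 26.0%, each below the 35.0% of the old control. Regions called in the old control alone covered 48.3 Mb, or 29.3% of the autosomal sequence that the old control list covered. The corresponding share was 22.8% in old TSA, 18.5% in young TSA and 22.3% in young control.

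Most regions of the old control alone were short. Their median width was 1400 bp, with 1000 bp at the 10th and 1900 bp at the 90th percentile, and the widest spanned 5000 bp. Every one of them was a single deposited region, since none was joined from touching ones. The widths fell into 2 peaks. At the shortest width in the lists, 1000 bp, lay 6297 regions (19.2%, 18.8 to 19.6%), and at exactly 1900 bp lay 7661 (23.4%, 22.9 to 23.8%). Each width between these held fewer, down to 1445 regions at 1700 bp, and only 1271 regions (3.88%) were wider than 1900 bp.

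Both peaks were present in the other single-library sets, at other heights. The 1900 bp peak held 18.6% of the regions of old TSA alone, 19.5% of young TSA alone and 13.7% of young control alone. The regions of the old control alone were thus the single-library set with the highest share at 1900 bp and the lowest at 1000 bp, where the other 3 sets held 21.3 to 23.1%. The differences in both shares lay beyond counting error. Merged regions of all 4 libraries looked different, with a median of 2500 bp, none at 1000 bp and 22.0% at 1900 bp. Merging widens regions of several libraries by construction, so these widths are not of single calls.

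**Figure D1:**
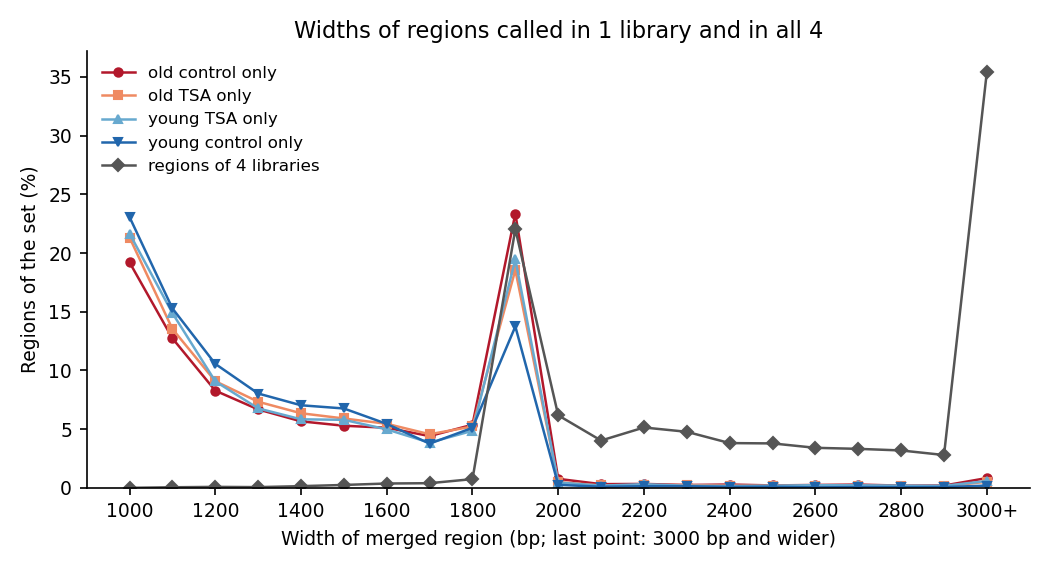
Percentage of the regions of a set (vertical axis) at each width in bp (horizontal axis, steps of 100 bp, the last point holding all regions of 3000 bp and wider), for the 4 single-library sets and the merged regions of all 4 libraries. The regions of old control alone peak at 1000 bp (19.2%) and at 1900 bp (23.4%), and 0.833% reach 3000 bp, against 35.5% of those of all 4 libraries.

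Taken as single deposited regions, without the widening by merging, old control regions were found alone the more often the narrower they were. Of the old control regions of 1000 bp, 59.3% (58.3 to 60.2%) had no counterpart in another library. The share was 51.6% at 1100 to 1400 bp, 39.2% at 1500 to 1800 bp, 24.5% (24.0 to 25.0%) at 1900 bp and 9.22% at 2000 to 2900 bp. Of the 4308 regions of 3000 bp or wider, 273 (6.34%, 5.63 to 7.11%) were in the old control alone. A wider region has more bases with which to meet another, which lowers this share by itself.

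The other libraries followed the same order by width, each below the old control in every width class. At 1900 bp, 16.5% of the old TSA, 14.4% of the young TSA and 15.1% of the young control regions were found in that library alone. The intervals of the old control did not meet those of the others in any of the 6 classes. The order of the libraries in these shares is also the order of the lengths of their lists, except between the 2 young libraries at widths of 1900 bp. The part of list length or depth in these shares was not tested.

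**Figure D2:**
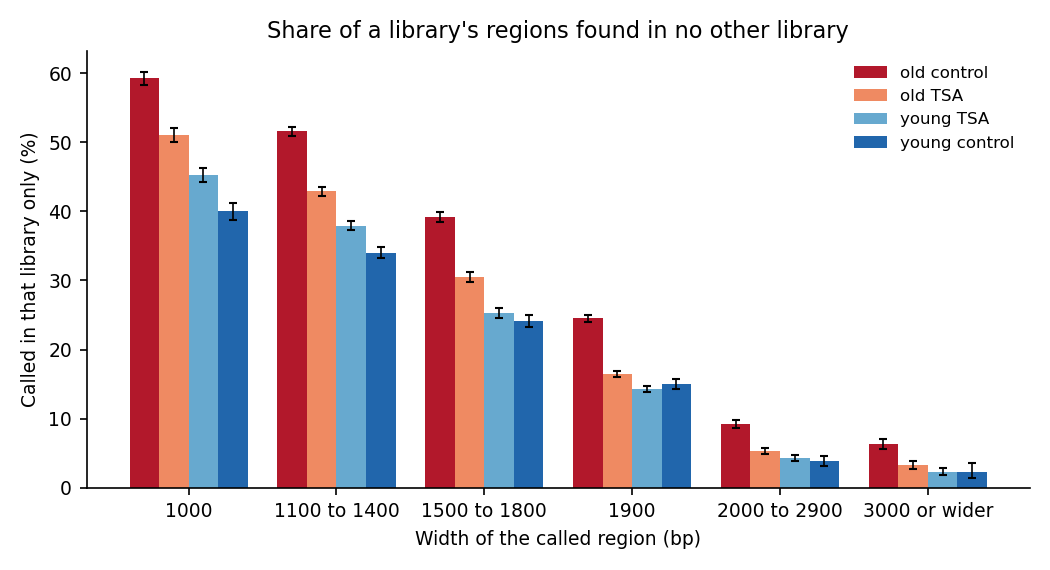
Percentage of the single regions of each library that were called in that library alone (vertical axis), by the width of the region in bp (horizontal axis), with 95% exact binomial intervals as error bars. Old control is highest in each class, from 59.3% at 1000 bp to 6.34% at 3000 bp and wider.

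The widest region lay on chromosome 16 from 10327301 to 10332300 (5000 bp), 5300 bp from a region of young control alone on one side and 5500 bp from one of both old libraries on the other. Second were a region of 4900 bp on chromosome 2 from 150755301 to 150760200 and another of that width on chromosome 6 from 19111201 to 19116100. The region on chromosome 6 had regions of the old control alone on both sides, at 21600 and 7300 bp. On chromosome 14 from 48218201 to 48223000 a region of 4800 bp lay 300 bp from a region that all libraries but young control shared. The fifth, on chromosome 7 from 25825501 to 25830000 (4500 bp), lay 400 bp from a region of young TSA and old control. The widest regions therefore sat both close to shared chromatin and away from it. Positions are of the mouse build mm9, with starts counted from 1. Which genes lie there was not analysed here.

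The rule turns on whether 2 calls meet, and many regions lay close to that limit. A gap of 100 to 500 bp to the nearest region of another library was found for 2322 regions (7.08%), with between 420 and 504 at each step of 100 bp. On the far side of the limit, 268 old control regions touched another library's region without sharing a base. A further 1513 shared only 100 to 500 bp with other libraries, between 262 and 341 at each step. Regions just inside and just outside had the same median width, 1400 bp, and similar shares at 1900 bp (23.3% and 22.9%).

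Most regions lay neither at shared chromatin nor far from it. The median distance, edge to edge, from a region of the old control alone to the nearest region of 2 or more libraries was 9600 bp. Of the regions, 9.72% had such a shared region within 1 kb, 51.1% (50.6 to 51.7%) within 10 kb and 88.8% within 50 kb. The distance to the nearest region of all 4 libraries was longer, at a median of 72100 bp, with 13.2% within 10 kb. The nearest merged region of any pattern lay at a median of 3900 bp.

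Against the same shared regions, the other single-library sets lay closer. Their median distances were 8700 bp for old TSA alone, 8700 bp for young control alone and 6600 bp for young TSA alone. Within 10 kb of a shared region lay 53.8% (old TSA), 54.4% (young control) and 61.7% (young TSA) of these regions. The regions of the old control alone were thus the farthest from shared chromatin of the 4 sets, and the gap was widest to young TSA. At 1 kb and below, the old control, old TSA and young control sets lay close together, with 9.72%, 10.2% and 10.3% within 1 kb.

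**Figure D3:**
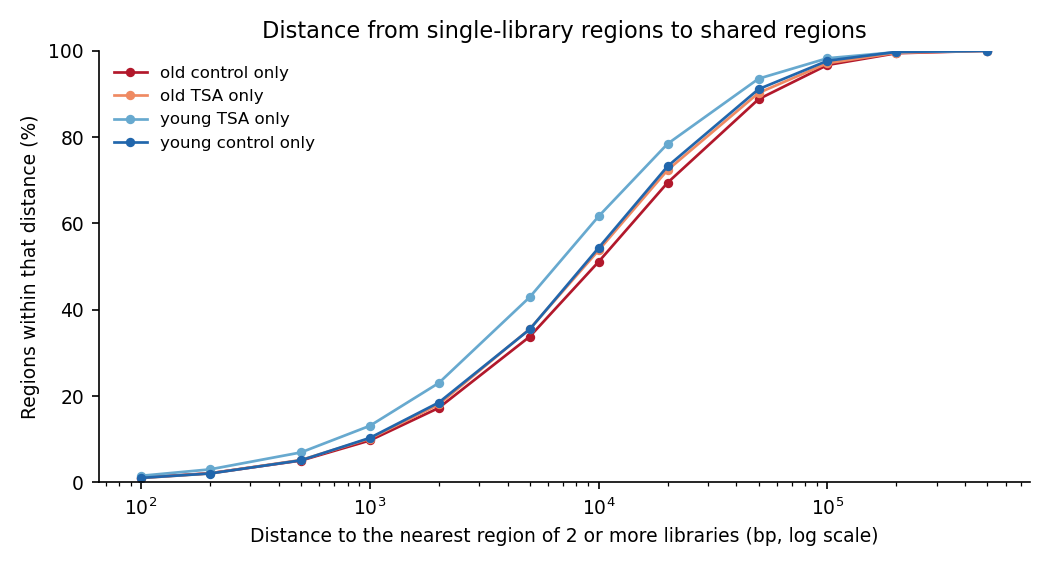
Percentage of the regions of each single-library set (vertical axis) that lie within a given distance in bp (horizontal axis, log scale) of the nearest merged region of 2 or more libraries. The curve of old control alone is the lowest from 1000 bp to 200 kb, reaching 51.1% at 10 kb, where young TSA alone reaches 61.7%.

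Distance to shared chromatin hardly followed width. The median was 9600 bp for regions of 1000 bp, 10100 bp for those of 1900 bp and 8200 bp for those of 2000 to 2900 bp. The 273 regions of 3000 bp or wider were the closest, at 7500 bp. To the called regions of each other library, the medians were 8700 bp for old TSA, 10500 bp for young TSA and 20800 bp for young control, in the order of the lengths of those lists. Another old control region that was itself shared lay at a median of 12800 bp.

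Seen from shared chromatin, a region of the old control alone was about as close to sites of 2, 3 or 4 libraries. Such a region lay within 10 kb of 28.7% (28.2 to 29.1%) of the regions of 2 libraries, 29.6% of those of 3 and 28.5% of those of all 4. Single-library regions had one within 10 kb in 27.7% (27.1 to 28.2%) of cases in old TSA, 27.3% in young TSA and 25.9% (25.1 to 26.7%) in young control.

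Regions of the old control alone neighboured each other slightly more often than their number among all regions. The nearest merged region was of the same kind for 22.2% (21.8 to 22.7%), where they made up 20.0% of all autosomal merged regions. With a reciprocal overlap of 50% as the rule for shared regions the values were 20.4% against 22.3%. Under that rule a region may partly overlap one of another library, which is then its nearest by construction. This lowers the share of like neighbours by itself, so the reversed order cannot be set against the main values. Counting the flanking region on each side, 22.7% of flanks were of the old control alone and 15.8% of old TSA alone, against 14.4% of all regions for the latter. Regions of both old libraries were 8.04% of flanks and 7.27% of all regions. Regions of all 4 libraries were 6.97% of flanks but 8.95% of all regions, and those of young TSA alone 10.4% against 11.1%. The flanks therefore held more regions of the old libraries alone, and fewer of all 4 libraries, than the whole. In the other sets the nearest region was of the same kind for 14.8% (old TSA, 14.4% of all regions), 11.8% (young TSA, 11.1%) and 8.90% (young control, 6.69%), where the percentages of all regions are the sets' own. The 2 young sets thus also had more like neighbours than their number among all regions, and the interval of old TSA alone (14.4 to 15.3%) held its share of all regions.

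Consecutive regions of the old control alone, with no region of another pattern between them, formed 5591 runs of 2 or more, which held 13034 regions (39.8%). Such runs held 28.3% of the regions of old TSA alone, 22.6% of young TSA alone and 16.5% of young control alone. These shares follow the order of the sets' shares of all regions (20.0% for old control alone, then 14.4%, 11.1% and 6.69%). A more numerous set has more like neighbours by its number alone. Runs of 5 or more regions of the old control alone numbered 106. The longest run, of 9 regions, spanned 251300 bp on chromosome 15 from 48856201 to 49107500, with gaps of 19000 to 43600 bp between regions. Its members were 1000 to 1900 bp wide and covered 13200 bp in all. A run of 8 lay on chromosome 5 from 7157501 to 7386500, and a second of that length occupied 53089601 to 53460400 of chromosome 16. The run on chromosome 16 held 1 region that the authors listed as higher in old control than in old TSA, at 53089601 to 53090800, and those on chromosomes 15 and 5 held none. These 3 runs were thus sparse stretches in which no library but the old control had a call, not blocks of dense calls.

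At the other extreme, the region farthest from any other lay on chromosome 14 from 7111501 to 7113100. Its neighbours were 869800 bp and 1206700 bp away. A region on the same chromosome from 4831101 to 4832500 stood 310100 bp from the next, and the first called region of that chromosome, from 4082201 to 4084100, stood 164500 bp from its neighbour. The remaining 2 of the 5 most isolated regions were 32677801 to 32678900 of chromosome 7 (286200 bp) and 130790201 to 130792100 of chromosome 6 (201900 bp). So 3 of these 5 lay near the start of chromosome 14. Assembly gaps were not known here and could not be set beside these distances.

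Along the genome, regions of the old control alone were spread more evenly than shared ones. By autosome, their density ran from 12.3 per Mb on chromosome 14 to 15.1 per Mb on chromosome 9, the highest being 1.23 times the lowest. The density of regions of 2 or more libraries ran from 25.9 per Mb on chromosome 14 to 39.0 per Mb on chromosome 11, a wider spread. The share of old control regions that were found there alone was therefore lowest on chromosomes 7 (31.2%) and 11 (31.5%) and highest on chromosomes 13 (38.4%) and 3 (38.3%). Over the 19 autosomes this share fell with the density of regions of all 4 libraries (Pearson r = -0.90, Spearman rho = -0.89). Shared regions of the old control are part of both measures. The pattern was not particular to the old control. Over the same autosomes its share rose with the share of old TSA regions found in old TSA alone (Pearson r = 0.85, Spearman rho = 0.88). Regions that both old libraries had are in the denominators of both shares.

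A finer comparison used windows of 1 Mb, pooled over all autosomes and not compared chromosome by chromosome. The windows held a median of 13 regions of the old control alone (0 to 34 over 2412 windows). The windows were put in 5 groups by their number of shared regions, from 0 to 12 in the lowest to 51 to 138 in the highest. Between these 2 groups the mean number of shared regions rose 8.15 times, from 8.48 to 69.1 per window. The mean number of regions of the old control alone rose 1.86 times, from 9.32 to 17.3. The windows were grouped by the number of shared regions, so the grouping itself fixes a large rise in that number. The 2 rises are therefore not measured alike, and their difference does not show by itself which regions were spread more evenly. In the windows with the fewest shared regions, 57.7% (56.6 to 58.7%) of the old control regions were thus in that library alone, and in those with the most, 24.2% (23.8 to 24.7%). Shared regions are also part of the denominator, so the share has to fall wherever the number of single-library regions rises less than that of the shared ones.

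The other single-library sets had larger fold rises over the same windows. The regions of old TSA alone rose 2.36 times, those of young control alone 2.49 times and those of young TSA alone 5.04 times. Regions of young TSA alone numbered 2.76 per window at the low end and 13.9 at the high end, where they were as frequent as those of old TSA alone (13.8). Between the lowest and the highest group of windows, old control alone thus had the smallest fold rise of the 4 sets, and its mean was the highest in each group. In regions per window, the rise of old TSA alone, from 5.83 to 13.8, was close to that of old control alone, from 9.32 to 17.3. Young control alone rose less, from 2.39 to 5.94, and it did not rise between the last 2 groups (6.07 and 5.94). The windows with the most regions of the old control alone were rich in shared regions too. On chromosome 4 from 152000001 to 153000000 there were 34 of them beside 101 shared regions, and on chromosome 5 from 129000001 to 130000000 there were 34 beside 83.

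**Figure D4:**
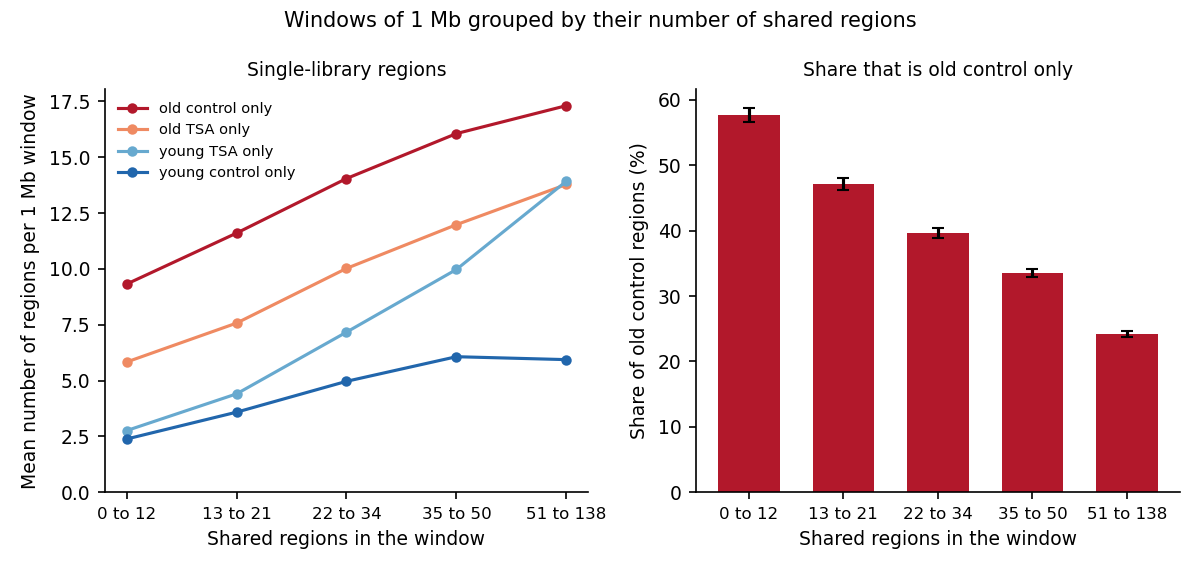
Windows of 1 Mb grouped by their number of regions of 2 or more libraries (horizontal axes). The left panel gives the mean number of single-library regions per window, and the right panel the percentage of old control regions that were called in no other library, with 95% exact binomial intervals. Regions of old control alone go from 9.32 to 17.3 per window while their share falls from 57.7% to 24.2%.

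Position along the chromosome gave a related picture. With each autosome split into 10 equal parts from its first to its last called region, the part at the start held 2963 regions of the old control alone and the part at the far end 3808. Shared regions went from 5961 to 12228 between the same parts. The share of old control regions found there alone was 39.0% (37.9 to 40.1%) in the first part and 28.4% (27.7 to 29.2%) in the last. It stayed between 34.6% and 38.3% from the second to the eighth part.

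The authors also deposited lists of regions that differed between TSA and control at each age. The list of regions higher in old control than in old TSA, called lost here, uses the same contrast as the rule, so its overlap with these regions is a description. Of the regions of the old control alone, 2088 (6.37%, 6.11 to 6.64%) overlapped a lost region, beside 4.49% of all autosomal merged regions with an old control region and 3.48% of those that another library had too. Of the 4211 autosomal lost regions, 2090 (49.6%) lay in regions of the old control alone. The remaining 30699 regions were not in the authors' lost list although old TSA had no call there.

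Listing as lost was more frequent at greater width up to 2900 bp and less frequent beyond. In the old control alone, 89 of the 6297 regions of 1000 bp were in the list (1.41%, 1.14 to 1.74%), 5.80% of those of 1500 to 1800 bp and 13.7% (12.9 to 14.5%) of those of 1900 bp. At 2000 to 2900 bp the share was 25.1% (22.4 to 27.9%), and at 3000 bp or wider it was lower, with 36 of 273 listed (13.2%, 9.41 to 17.8%). The listed regions thus had a median width of 1900 bp, against 1400 bp for the others, and 63.9% of them were 1900 bp or wider, against 24.7%. Distance did not separate the listed regions from the rest, with median distances to shared chromatin of 9650 and 9600 bp.

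Old control regions that had a call in a young library but none in old TSA were listed less often at the same width. At 1900 bp the share was 9.95% (9.13 to 10.8%) for these regions and 13.7% for those of the old control alone, a gap beyond counting error. The order was the same in each class below 1900 bp. It also held at 2000 to 2900 bp, with 19.5% (17.2 to 21.9%) against 25.1% (22.4 to 27.9%) and intervals that did not meet. At 3000 bp or wider the order was reversed, with 20.9% (16.9 to 25.4%) against 13.2% and intervals that met. Old control regions with a call in old TSA were listed in 1.89% of cases at 1900 bp. Over all widths the first 2 sets hardly differed, at 6.37% for the old control alone and 6.15% (5.76 to 6.56%) for those also called in a young library.

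**Figure D5:**
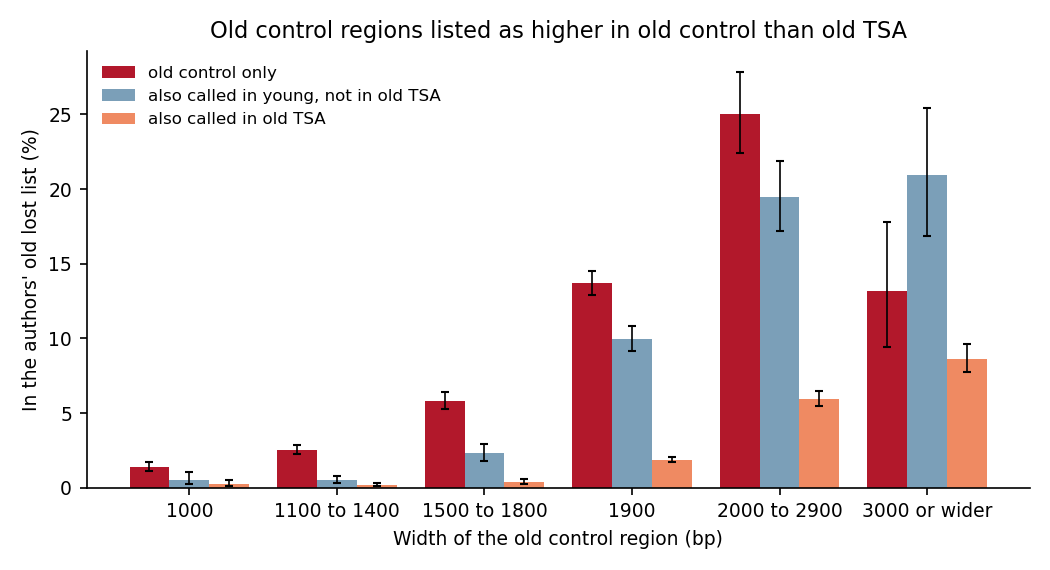
Percentage of single old control regions that overlap the authors' list of regions higher in old control than in old TSA (vertical axis), by width in bp (horizontal axis) and by where else the region was called, with 95% exact binomial intervals. In the old control alone the share goes from 1.41% at 1000 bp to 25.1% at 2000 to 2900 bp.

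Of the 2090 lost regions within regions of the old control alone, 85.8% lay wholly inside the called region and 19.5% had exactly its bounds. The widest listed region was that of 4800 bp on chromosome 14 from 48218201 to 48223000. It was followed by one of 4200 bp on chromosome 3 from 34642501 to 34646700, 5600 bp from a region of all 4 libraries. A further 3, each of 3800 bp, lay on chromosome 9 from 57507401 to 57511200, from 60988701 to 60992500 and from 90086401 to 90090200. Their nearest shared regions were 8100, 18900 and 2900 bp away. By chromosome, the listed share of the regions of the old control alone ran from 4.17% on chromosome 11 to 7.49% on chromosome 15. These are the extremes of 19 autosomes. The share over all old control regions of each chromosome is not given here, so the values cannot be read as particular to this set.

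The other differential lists hardly touched these regions, where the rule allows no call of another library. Regions higher in old TSA than in old control overlapped 2 of them, beside 1.06% of all regions with an old control region, and regions higher in young TSA than in young control overlapped another 2, beside 6.93%. These 4, singled out for their small number, lay on chromosome 5 from 76256101 to 76257600 and chromosome 13 from 12151101 to 12153000 for the old mice. For the young mice they lay on chromosome 5 from 117952301 to 117953300 and chromosome 10 from 8738301 to 8739300. Each had a region of another library within 600 bp. The list of regions higher in young control than in young TSA overlapped 0 of the 32787, beside 0.124% of all regions with an old control region.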

How the data were processed

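Accessible regions were measured by NA-seq in 4 libraries, 1 per group, and groups were taken from the sample titles. The authors deposited 8 lists, 4 of called regions and 4 of regions that differed between TSA and control, each with chromosome, start and end and no score or count. Bowtie 0.12.7 and the build mm9 are named in the submitters' processing notes. No source used here gives the caller, its threshold or whether animals were pooled. The protocol names NlaIII or HpaII as first enzyme and Sau3AI as second, and does not say which first enzyme a library had. The depth per library is unknown from these lists, and intervals cover counting error only.

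Touching or overlapping regions of the 4 library lists were merged. The shared regions of the text are merged regions of 2 or more libraries, distances are edge to edge, and an overlap is at least 1 bp. Deposited starts, which count from 0, and ends are multiples of 100 bp. Work was done in Python 3.11.15 with numpy 2.4.6, pandas 2.3.3, scipy 1.17.1 and matplotlib 3.10.9, and the functions were tested on simulated data. No test between groups was possible with 1 library each. Regions named by rule were the 5 widest, the 5 most isolated, the 5 widest in the lost list and the 3 longest runs, ties being settled by chromosome number, then by start. The members, the rule and the measures were chosen with earlier results of these data known, and the windows, width classes and parts of chromosomes after values were seen. Genes and sequences were not analysed here, because the reference tables used are of another build, GRCm38.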

Additional observations from a re-analysis of the deposited data

How the results depend on the processing

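With 1 library per group, no replicate could be left out. No paired analysis was possible because each group has a single library and nothing pairs them. Depth and scores are unknown, so a minimum width stood in for a stricter threshold. When regions narrower than the median of their own list were dropped, 18611 regions were in the old control alone, which was 36.6% of the merged regions with an old control region. Of those, 85.0% were 1900 bp or wider, a rise that the width limit itself fixes, 35.6% lay within 10 kb of a shared region, 23.9% had a like nearest neighbour and 10.8% were in the lost list. The other alternatives kept the number of regions within 1.5 times, from 29953 to 45108. The share of old control regions found there alone was 33.4% with gaps of up to 500 bp merged, 39.6% with a reciprocal overlap of 50% required, 35.5% with all chromosomes, and 37.7%, 44.8% and 48.0% with the young control, young TSA or old TSA list left out. In the same order but without all chromosomes, the share 1900 bp or wider was 27.8%, 29.6%, 27.8%, 31.2% and 32.5%. Within 10 kb of a shared region lay 49.1% with gaps merged, 53.8% with reciprocal overlap, 49.9% with all chromosomes, 48.0%, 44.6% and 41.2% with those lists left out, 45.7% by distance between centres and 13.2% when shared meant all 4 libraries. A like nearest neighbour was found for 20.4% with reciprocal overlap, 22.8% with all chromosomes, and 25.5%, 30.2% and 36.7% with the lists left out. The set's own shares of all regions were then 22.3%, 20.3%, 23.0%, 28.7% and 31.9%, and 20.8% with the width limit. Like neighbours were more than that share in the settings named here except reciprocal overlap, where they were fewer. There, regions of other libraries may overlap the set and are then nearest by construction, which lowers the share of like neighbours. The share in the lost list was 5.09% without the old TSA list. Leaving a list out admits regions by construction, as does requiring a reciprocal overlap. Distances between centres are longer than those between edges, and regions of all 4 libraries are only a part of the shared ones. Both of those shares within 10 kb therefore fall by construction. For the remaining moves the cause was not tested. The remaining 21 of 52 alternative values stayed within the interval of the main value or, for counts, within 1.5 times of it.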

Other observations

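The X chromosome, which the rule leaves out, held 1178 regions of the old control alone. They were 59.3% (57.1 to 61.5%) of its 1987 merged regions with an old control region, against at most 38.4% on any autosome. The density of these regions on the X chromosome was 7.22 per Mb, and that of regions of 2 or more libraries was 5.97 per Mb. Their median width was 1300 bp, and 24.7% were 1900 bp or wider. Shared regions were far away, at a median of 53700 bp, and 15.3% of the X-linked regions had one within 10 kb. The lost list held 71 of them (6.03%), close to the 6.37% of the autosomal ones. The listed share over all X-linked regions with an old control region is not given here, so this value has no background beside it. Of the X-linked merged regions with an old TSA region, 48.4% were in that library alone. Chromosome Y held 1 region of the old control alone and the mitochondrial genome another. No label used here states the sex of the animals.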
